A study of Mus musculus with 12 samples.

Results

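The choroid plexus is the fringe of epithelium inside the brain ventricles that makes cerebrospinal fluid and closes the border between blood and that fluid. Its epithelial cells carry ions, water, folate, vitamin A and hormones from blood to fluid, are joined by tight junctions, and secrete large amounts of transthyretin. The tissue is not part of the cortex, although it lies close beneath it in the lateral ventricles. In systemic lupus erythematosus the choroid plexus is studied as a route by which antibodies and immune cells reach the brain.

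The genes described here are 10 markers of this epithelium, Ttr, Folr1, Clic6, Kl, Otx2, Aqp1, Slc4a5, Sostdc1, Cldn2 and Prlr, of 29608 named genes on the array. They were chosen by gene name, for their strong difference between MRL/lpr and Fn14ko cortex in these same samples. The differences between those 2 groups are therefore given as a description, with no test. The array carries 16 probes for the 10 genes, and 8 genes, all but Slc4a5 and Cldn2, passed the filter on dim spots and were tested among 17302 genes. Slc4a5 and Cldn2 are described by their spots.

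Cortical RNA of 12 adult female mice of like age, killed in diestrus, was measured, 4 in each of 3 groups. MRL/lpr mice carry the lpr loss-of-function mutation of Fas on the MRL background and develop a lupus-like disease. Fn14ko mice carry the same Fas mutation and in addition lack Fn14, the receptor of the cytokine TWEAK, encoded by Tnfrsf12a. They were backcross littermates bred together with the MRL/lpr mice. MRL/+ mice, named MRL/MpJ in the labels, have the same background without the Fas mutation, carry intact Fn14, and were bought from another source. The sources name no treatment of the mice.

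Every array carried a pair of mice from 1 group, of which 1 was labelled with Cy3 (mice 1 and 3) and 1 with Cy5 (mice 2 and 4), and each group lay on its own slide with its own scan, so that slide, scan and group cannot be told apart. The values below are relative signals, in which 1 is the median of the retained spots of that mouse's channel. Between 56.6% and 70% of spots were well above background in 10 mice, but 35% and 21.2% in the Cy5 mice 2 and 4 of MRL/+, whose dim values are therefore a bound set by background. Spots not well above background had a median signal of 0.055 to 0.139 in MRL/lpr, 0.0515 to 0.239 in Fn14ko and 0.0742 to 0.555 in MRL/+. In the Cy3 mice 1 of MRL/+ and Fn14ko this median was 0.339 and 0.239, so their dim values lie near background as well. Background therefore limits the group differences of dim genes. No spot was saturated. Tnfrsf12a signal lay between 1.38 and 1.9 in MRL/lpr, between 0.943 and 1.28 in MRL/+ and between 0.604 and 0.777 in Fn14ko, with no overlap between the groups. Its Fn14ko level was 2.41-fold below that of MRL/lpr (limma adjusted p = 0.00287) and 1.59-fold below that of MRL/+ (limma adjusted p = 0.104), so the signal was lower in the knockout but did not fall to background. Markers of cortical excitatory neurons had a like summed signal in all 12 mice, from 40.7 to 60.3 over 11 genes. In limma, 3 of the 11 were higher and 1 lower in MRL/lpr than in Fn14ko, and 5 higher and 2 lower than in MRL/+. The sum thus holds changes in both directions and does not show that the dissections were alike.

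Members that varied together are set beside the sequence upstream of their starts. RefSeq promoters (build GRCm38.p6, from 250 bases before to 50 bases after a start) were matched for 6 of the 10 genes, Kl, Aqp1, Slc4a5, Otx2, Prlr and Cldn2, with 11 starts in all. The letters TAATCC, the core site of Otx-type homeodomain factors, were searched on both strands (GGATTA on the other strand). They were found at 1 of the 11 starts, in Otx2 itself, against 7.06% of all 32851 promoters. The core of a TATA box, spelled TATAA or on the other strand TTATA, was found at 4 of the 11, in Slc4a5, Cldn2 and 2 starts of Otx2, against 24.9% of all promoters. Overlapping matches such as TTATAA were counted once per promoter. The 220 bases before the start are shown for the Otx2 start with both motifs, for Cldn2 with the TATA core alone and for Kl with neither, with every match in capitals.
Otx2, minus strand, chr14:48665110-48665329: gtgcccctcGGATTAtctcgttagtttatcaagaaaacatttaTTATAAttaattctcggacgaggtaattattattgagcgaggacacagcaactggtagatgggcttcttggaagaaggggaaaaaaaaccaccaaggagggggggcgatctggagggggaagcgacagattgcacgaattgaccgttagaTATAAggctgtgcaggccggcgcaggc
Cldn2, plus strand, chrX:139800588-139800807: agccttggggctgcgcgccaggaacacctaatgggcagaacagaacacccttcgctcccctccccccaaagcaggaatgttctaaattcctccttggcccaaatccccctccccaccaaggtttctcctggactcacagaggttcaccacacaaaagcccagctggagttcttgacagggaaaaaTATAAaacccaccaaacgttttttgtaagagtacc
Kl, plus strand, chr5:150952387-150952606: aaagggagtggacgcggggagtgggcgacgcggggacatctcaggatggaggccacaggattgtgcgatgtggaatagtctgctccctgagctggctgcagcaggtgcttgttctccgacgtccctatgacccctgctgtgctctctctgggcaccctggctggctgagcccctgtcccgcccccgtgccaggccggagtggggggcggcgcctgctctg
Matches of letters are a description of these windows and not evidence of binding.

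Choroid plexus genes differed widely between mice of the same group, and they did so together. In MRL/lpr cortex, mouse 3 had the highest signal of the group for 7 of the 8 tested genes, while mouse 1 had the lowest for 6. In Fn14ko cortex, mouse 3 was lowest and mouse 4 highest for all 8. In MRL/+ cortex, mouse 4 was highest for 7, and mice 1 and 3 shared the lowest place. The median over the 8 genes of the highest mouse exceeded that of the lowest mouse of its group 5.94-fold in MRL/lpr, 6.15-fold in Fn14ko and 4.4-fold in MRL/+.

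Transthyretin (Ttr), the carrier of thyroid hormone and of retinol-binding protein in cerebrospinal fluid, was measured by 1 probe on chromosome 18 (20828519 to 20828577, build mm9). Ttr signal was 7.46, 5.13, 91.2 and 12.8 in MRL/lpr mice 1 to 4, giving 29.1 ± 41.5 (SD, n = 4). The Fn14ko values were 50.4, 104, 9.54 and 159, giving 80.9 ± 65.2 (SD, n = 4). In MRL/+ mice 1 to 4 Ttr signal was 12.2, 76.7, 17.4 and 249, giving 88.9 ± 111 (SD, n = 4). The groups overlapped: MRL/lpr mouse 3 stood above 2 of the 4 Fn14ko mice and Fn14ko mouse 3 stood below MRL/lpr mouse 4. Ttr differed 17.8-fold between MRL/lpr mice, 16.7-fold between Fn14ko mice and 20.3-fold between MRL/+ mice, each span larger than the fitted 3.66-fold lower level of MRL/lpr against Fn14ko.

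Sostdc1 encodes a secreted inhibitor of BMP and Wnt signalling and has 2 probes on chromosome 12. Sostdc1 signal, the mean over its probes, was 0.421, 0.664, 1.64 and 0.22 in MRL/lpr. It was 1.78, 2.08, 0.362 and 2.58 in Fn14ko, and 0.688, 1.26, 0.576 and 2.89 in MRL/+. MRL/lpr mouse 3 stood above 3 of the 4 MRL/+ mice, and Fn14ko mouse 3 stood below 3 of the 4 MRL/lpr mice. The fitted log2 difference of MRL/lpr from Fn14ko was -1.27 with a standard error of 0.91.

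**Figure D1:**
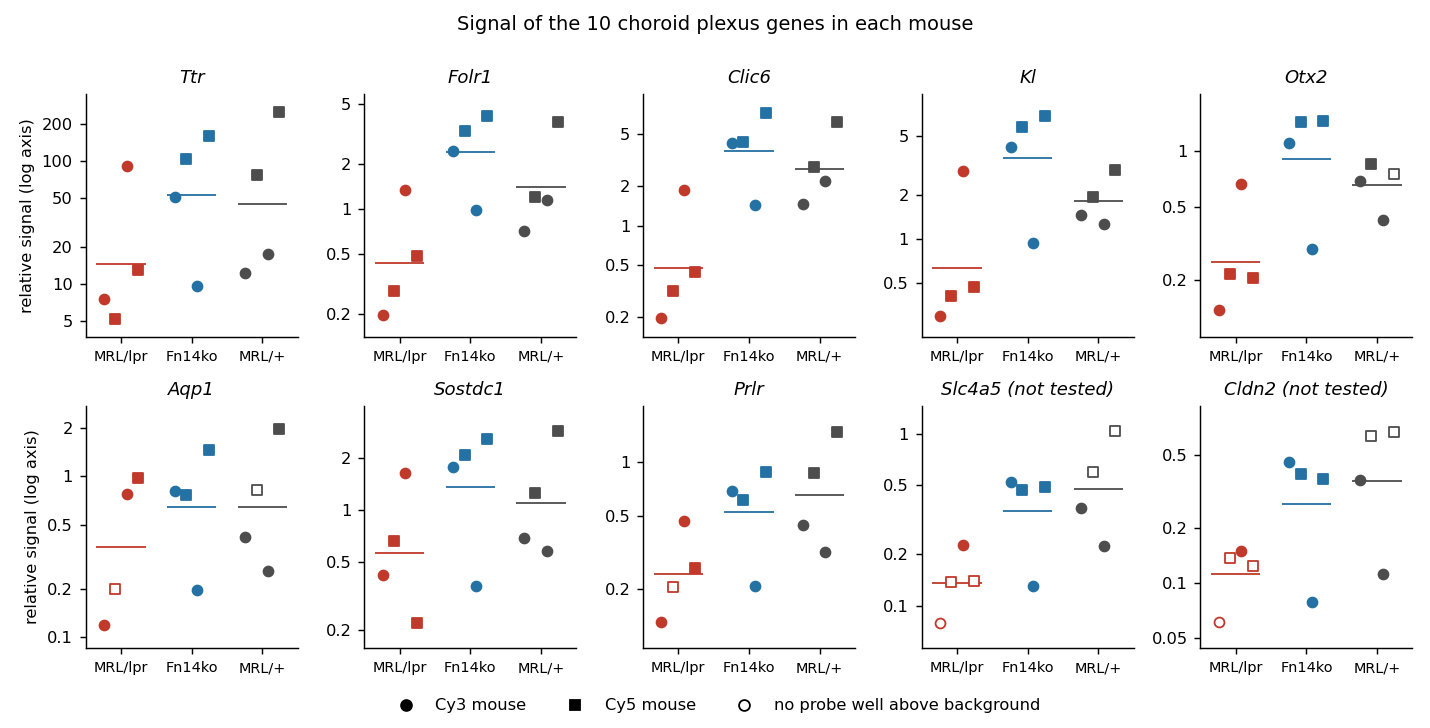
Relative signal (log axis) of each of the 10 genes, 1 point per mouse, with circles for Cy3 mice, squares for Cy5 mice, open symbols where no probe of the gene was well above background, and a line at the group mean of log2 signal. MRL/lpr mouse 3 (the right-hand circle of its group) lay within the range of the other groups for Ttr at 91.2, and Fn14ko mouse 3 was the lowest of its group in every panel.

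Genes for transport across the epithelium came next. Folr1, the folate receptor that carries folate into the fluid, has 2 probes on chromosome 7, and its signal was 0.196, 0.284, 1.34 and 0.484 in MRL/lpr mice. In Fn14ko mice Folr1 signal was 2.45, 3.32, 0.986 and 4.17, and in MRL/+ mice it was 0.711, 1.21, 1.15 and 3.84. Only MRL/lpr mouse 3 and Fn14ko mouse 3 crossed between those 2 groups, and the log2 difference of MRL/lpr from Fn14ko was -2.46 (standard error 0.70). Clic6 encodes a chloride intracellular channel protein and has 1 probe on chromosome 16 (92541363 to 92541422, mm9). Clic6 signal was 0.198, 0.321, 1.88 and 0.443 in MRL/lpr, 4.3, 4.35, 1.45 and 7.19 in Fn14ko, and 1.46, 2.8, 2.18 and 6.19 in MRL/+. The MRL/lpr and Fn14ko mice other than mouse 3 of each group lay far apart, and the fitted log2 difference of -2.96 (standard error 0.78), 7.8-fold, exceeded that of the other 7 tested genes.

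Aqp1, the water channel of the apical membrane, was the gene that departed most from the common pattern. Its single probe on chromosome 6 gave 0.119, 0.198, 0.772 and 0.983 in MRL/lpr, so that mouse 4, and not mouse 3, was highest. Aqp1 signal was 0.812, 0.764, 0.195 and 1.45 in Fn14ko and 0.419, 0.822, 0.256 and 1.97 in MRL/+. MRL/lpr mice 3 and 4 thus lay beside 2 Fn14ko mice, and the log2 difference of MRL/lpr from Fn14ko was -0.82 (standard error 0.77), the smallest of the 8. MRL/lpr mouse 2 and MRL/+ mouse 2 were not well above background for Aqp1.

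Slc4a5 encodes a sodium bicarbonate cotransporter and has 2 probes on chromosome 6, neither of which passed the filter. The probe at 83253664 to 83253723 (mm9) gave 0.0888, 0.147, 0.284 and 0.157 in MRL/lpr, where mouse 3 alone was well above background. All 4 Fn14ko mice were well above background at this probe, with 0.626, 0.576, 0.174 and 0.695. Of the MRL/+ mice, the Cy3 mice 1 and 3 were well above background at 0.382 and 0.288, and the Cy5 mice 2 and 4 were not. The 0.382 lay near 0.339, the median of spots not well above background in that channel. Slc4a5 resembled the tested genes in this, with mouse 3 highest in MRL/lpr and lowest in Fn14ko.

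Prlr and Kl stand for the receptors of the epithelium. Prlr, the prolactin receptor, has 2 probes on chromosome 15, and its signal was 0.132, 0.206, 0.471 and 0.259 in MRL/lpr, 0.692, 0.616, 0.208 and 0.878 in Fn14ko and 0.451, 0.862, 0.32 and 1.45 in MRL/+. MRL/lpr mouse 3 exceeded Fn14ko mouse 3 and stayed below the other 3 Fn14ko mice. Kl, or klotho, the co-receptor of FGF23 with a shed form in cerebrospinal fluid, has 1 probe on chromosome 5 (151795712 to 151795771, mm9). Kl signal was 0.297, 0.408, 2.88 and 0.464 in MRL/lpr, 4.24, 5.8, 0.935 and 6.91 in Fn14ko, and 1.46, 1.92, 1.26 and 2.95 in MRL/+. MRL/lpr mouse 3 was 9.71 times as high as the lowest mouse of its group for Kl. The log2 differences of MRL/lpr from Fn14ko were -1.14 (standard error 0.60) for Prlr and -2.49 (standard error 0.88) for Kl.

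Otx2 encodes the homeodomain factor that choroid plexus cells need in order to form and persist. Its signal over 2 probes was 0.137, 0.216, 0.662 and 0.205 in MRL/lpr, 1.11, 1.44, 0.296 and 1.45 in Fn14ko and 0.686, 0.851, 0.423 and 0.755 in MRL/+. As for the other tested genes except Aqp1, mouse 3 was highest in MRL/lpr and lowest in Fn14ko, and the 2 groups crossed at these mice. The 2 probes differed: the one at chromosome 14, 49277855 to 49277914 (mm9), differed by -2.27 between the mean log2 signals of MRL/lpr and Fn14ko, and the one at 49284952 to 49285011 by -0.40. The second probe was well above background in 2 mice of each group, all labelled with Cy3, and there MRL/lpr mouse 3 was the lowest of its group, at 0.092. The 2 Folr1 probes differed as well, by -2.71 and -1.11 on the log2 scale, and so did the Prlr probes, by -1.43 and -0.68. The Folr1 probe at -1.11 was well above background in 2 of the 4 MRL/lpr mice and each Prlr probe in 3 of the 4, so background sets part of these differences. At the Prlr probe at -0.68, MRL/lpr mouse 3 gave 0.213 and mouse 2, not well above background, gave 0.229. Because signals were averaged over probes before the log, the brighter probe weighs more, and the mean of the probes' own log2 differences was -1.91 for Folr1 and -1.33 for Otx2 against -2.46 and -1.86 as fitted.

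Cldn2 encodes the pore-forming claudin of the tight junction, with 2 probes on the X chromosome that did not pass the filter. At 136345244 to 136345303 (mm9) its signal was 0.0678, 0.137, 0.244 and 0.12 in MRL/lpr, with mouse 3 alone well above background. The 4 Fn14ko mice, all well above background, gave 0.662, 0.556, 0.105 and 0.635, and the Cy3 mice 1 and 3 of MRL/+ gave 0.387 and 0.141. The 0.387 lay near 0.339, the median of spots not well above background in that channel. The other Cldn2 probe was well above background in 1 of the 12 mice, Fn14ko mouse 1, at 0.254, and gives no fold between groups.

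Taking the 8 tested genes together, the fitted log2 difference of MRL/lpr from Fn14ko was below 0 for all 8, with a median of -1.86, against a median of -0.07 over all genes tested. The mice of the 2 groups overlapped for all 8, where 20.3% of all genes had no overlap. This count belongs to the contrast by which the genes were chosen, and nothing is read from it. Without MRL/lpr mouse 3 the median was -2.80, more than 1.5 times the main value on the fold scale. Less RNA per choroid plexus cell and fewer choroid plexus cells in the dissected cortex cannot be told apart in these bulk samples.

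Between MRL/lpr and MRL/+ cortex, 1 of the 8 genes passed the adjusted threshold in limma, where 14.4% of all genes did, and no gene was free of overlap, where 23.9% of all genes were. Clic6 was lower in MRL/lpr by a log2 difference of -2.51 (standard error 0.78, adjusted p = 0.0486). The other 7 differences lay below 0 as well, from -1.68 for Folr1 (adjusted p = 0.112) to -0.82 for Aqp1 (adjusted p = 0.448), and the median of the 8 was -1.47. The MRL/lpr mice of this comparison are those by which the genes were chosen, so it does not stand apart from that choice. Clic6 no longer passed in limma without MRL/lpr mouse 1, 2 or 4, without Fn14ko mouse 2 or without MRL/+ mouse 2, 3 or 4, with adjusted p from 0.0518 without MRL/+ mouse 2 to 0.25 without MRL/+ mouse 4, and without both Cy5 mice of MRL/+ none of the 8 passed in limma and none had an unadjusted p under 0.05. Without MRL/lpr mouse 3, 5 of the 8 passed, where 10.7% of all genes did, and Clic6 was at -3.33. The genes were chosen for low signal in MRL/lpr and that mouse held most of the high values, so the larger count is a description of the other 3 mice and no support for a difference.

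Between Fn14ko and MRL/+ cortex none of the 8 genes passed in limma, where 0.954% of all genes did, and none had an unadjusted p under 0.05. The groups overlapped for all 8, where 13.5% of all genes did not overlap. Log2 differences ran from -0.30 for Prlr (adjusted p = 0.75) to 0.98 for Kl (adjusted p = 0.464), with a median of 0.39. For Aqp1 the difference was 0.00 with a standard error of 0.77, which leaves room for a difference of either sign.

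**Figure D2:**
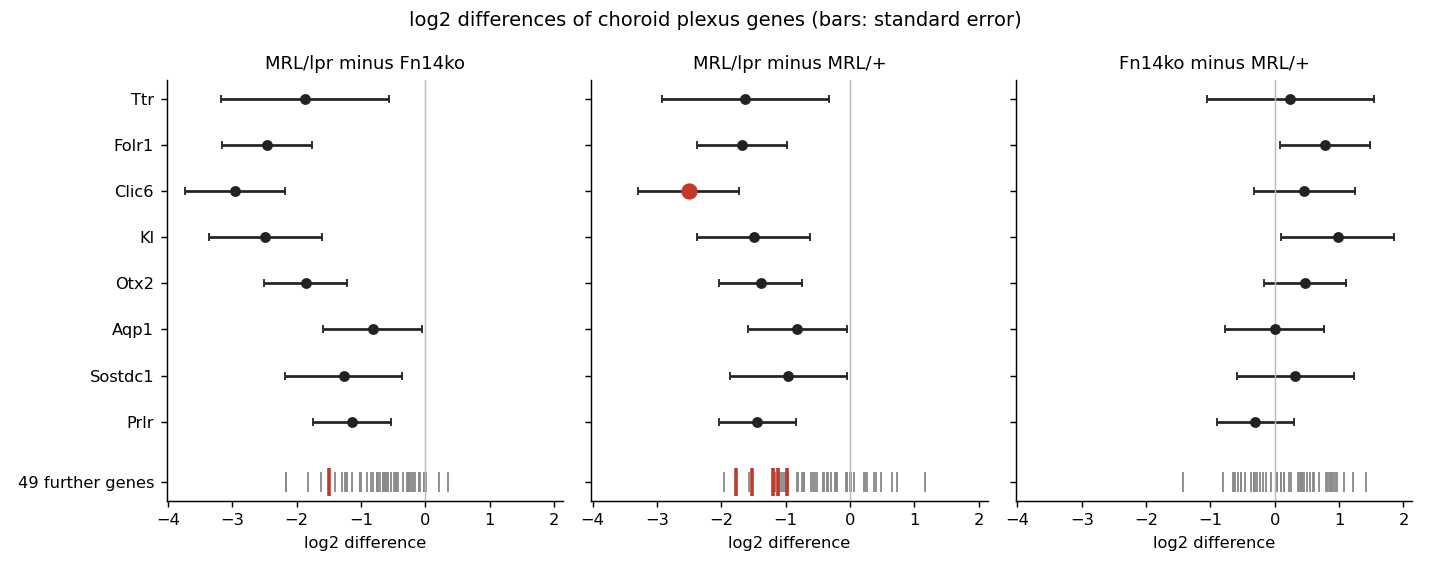
Fitted log2 differences of the 8 tested genes in the 3 comparisons (points, with bars of 1 standard error) and of 49 further choroid plexus genes (ticks), with red for an adjusted p under 0.05, not marked for the 8 genes in the left panel. All 8 lay below 0 in both comparisons with MRL/lpr, Clic6 at -2.96 and -2.51, and around 0 between Fn14ko and MRL/+.

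The spread between mice of a group was the feature in which these genes stood out from most of the array. The SD of log2 signal within a group, pooled over the 3 groups, had a median of 1.15 over the 8 genes and 0.33 over all genes tested. Over 49 further choroid plexus genes, described below, the median was 0.56, so the wide spread of the 8, which were chosen from these data, did not hold for every listed gene. Some of the 49 spread about as widely, such as Wfdc2 at 1.10, Ecrg4 at 1.08 and Kcnj13 at 1.06. Others spread little, such as Ezr at 0.21 and Atp2b3 at 0.17. Whether the spread of the 8 is that of the tissue's genes at large was not tested. Ttr had the widest spread of the 8, with an SD of 1.88 that 0.283% of all genes exceeded. Aqp1 followed at 1.33, and Kl and Sostdc1 at 1.19. Otx2 and Prlr, with 0.88 and 0.89, were the narrowest, and 4.01% and 3.88% of all genes had a larger SD. The spread was present in every group, with a median SD of 1.31 for MRL/lpr mice, 1.16 for Fn14ko mice and 1.00 for MRL/+ mice.

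**Figure D3:**
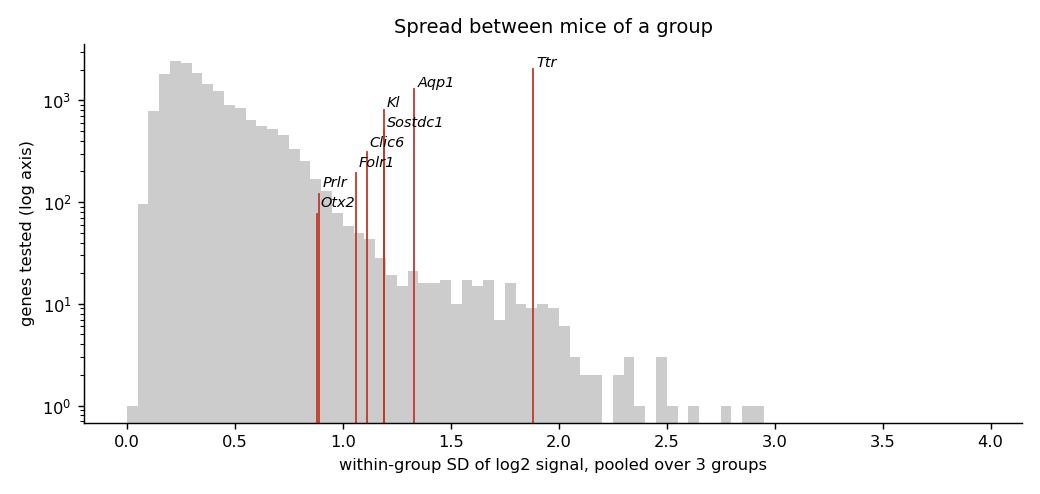
Number of genes tested (log axis) by their within-group SD of log2 signal, pooled over the 3 groups, with red lines at the 8 choroid plexus genes. All 8 lay in the upper tail, from 0.88 for Otx2 to 1.88 for Ttr, while the median gene had an SD of 0.33.

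Mice 3 and 4 of each group, which shared an array, gave the same picture within 1 hybridization, and mice 1 and 2 less so. On the array of Fn14ko mice 3 and 4, all 8 genes were higher in mouse 4, by 4.23-fold for Prlr to 16.7-fold for Ttr, with a median of 5.95-fold. On the array of MRL/+ mice 3 and 4, all 8 were higher in mouse 4, by a median of 3.89-fold. On the array of MRL/lpr mice 3 and 4, 7 of 8 were higher in mouse 3, by a median of 3.7-fold, and Aqp1 was the exception at 0.785-fold. The absolute log2 ratio between array partners had a median of 0.23 over all genes on the array of Fn14ko mice 3 and 4 and of 2.57 over the 8. On the array of MRL/+ mice 3 and 4 these medians were 0.59 and 1.96, and on that of MRL/lpr mice 3 and 4 they were 0.25 and 1.89. They lay closest on the array of Fn14ko mice 1 and 2, at 0.20 and 0.30. The arrays of mice 1 and 2 showed smaller ratios, with mouse 2 higher by medians of 1.57-fold in MRL/lpr, 1.23-fold in Fn14ko and 1.87-fold in MRL/+. The higher mouse was thus the Cy5 mouse on 5 of the 6 arrays and the Cy3 mouse on 1, that of MRL/lpr mice 3 and 4, and on a single array dye and mouse cannot be told apart. With the mean of each dye removed from each gene along with the group means, the SD had a median of 1.14 over the 8 genes and 0.31 over all genes tested.

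**Figure D4:**
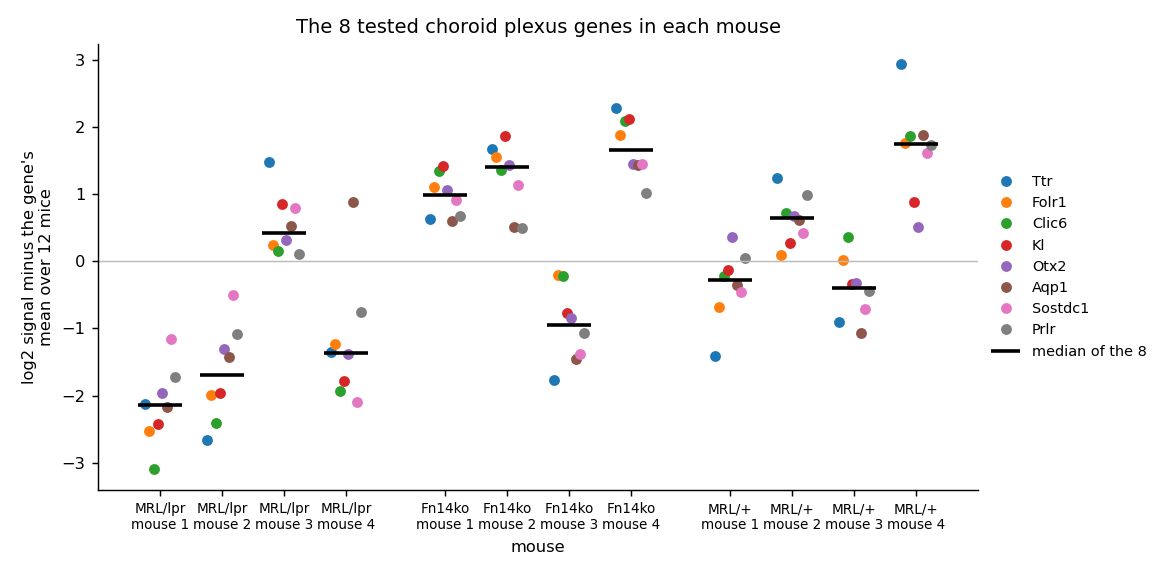
Log2 signal of the 8 tested genes in each mouse, relative to each gene's mean over the 12 mice, with a black line at the median of the 8. Medians ran from -2.15 in MRL/lpr mouse 1 to 1.75 in MRL/+ mouse 4; MRL/lpr mouse 3 at 0.42 stood above Fn14ko mouse 3 at -0.96.

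The 8 genes followed each other across mice. After the mean of each group was subtracted, Pearson r between pairs of the 8 genes over 12 mice had a median of 0.86, from 0.62 between Aqp1 and Sostdc1 to 0.98 between Folr1 and Clic6, and a mean of 0.86. With dye means removed as well, the median was 0.86, from 0.56 to 0.98. The mean r over all pairs of genes tested was 0.027. These coefficients are descriptions over 12 points that share arrays and channels. Aqp1 and Sostdc1 had the lowest r with the mean of the 8, at 0.88 and 0.89, and Clic6 the highest, at 0.97.

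Other genes of the choroid plexus, 62 in 4 roles, were listed from knowledge of the tissue, and 49 of them were tested. Of the 49, 48 had a positive r with the mean of the 8 genes after group means were subtracted, with a median of 0.75, against 61.8% positive and a median of 0.14 among all other genes tested. Some of the 49 lay near background. Trpm3, with an r of 0.53, was at 0.61 in MRL/+ mouse 2, where spots not well above background had a median of 0.555. Others were bright, such as Enpp2, with an r of 0.97 and a lowest signal of 12.9. The part of background in these r values was not tested. An r above 0.9 was reached by 11 of the 49 and by 19 genes in all, which is 0.11% of the genes tested outside the 8. By role, the median r was 0.79 for 14 genes of ion and solute transport, 0.78 for 16 secreted and carrier proteins, 0.63 for 13 genes of epithelial junction and structure, and 0.59 for 6 receptors and transcription factors.

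Genes whose pattern was most like that of the 8 were ranked over the 12 mice. Wfdc2, a secreted protein with protease inhibitor domains, was first with r = 0.993, followed by Lbp, the lipopolysaccharide-binding protein, at 0.970, Rdh5, a retinol dehydrogenase, at 0.964, and Wdr86 at 0.958. Sulf1, an extracellular heparan sulfatase, had an r of 0.956, the carbonic anhydrase Car12 of 0.948 and the claudin Cldn3 of 0.942. Zfp185 at 0.926, Crhr2, a receptor of corticotropin-releasing family peptides, at 0.924 and C1qtnf5 at 0.924 completed the first 10, of which 6 were on the list of further choroid plexus genes. Wfdc2 signal ran from 0.116 to 0.697 in MRL/lpr, from 0.243 to 1.44 in Fn14ko and from 0.379 to 1.63 in MRL/+.

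After group means were subtracted, 5 of those 10 genes stayed among the first 10, with Wfdc2 at 0.989, Lbp at 0.978, Sulf1 at 0.961, Wdr86 at 0.952 and Rdh5 at 0.942. The new ones were Enpp2, or autotaxin, at 0.972, the carbonic anhydrase Car14 at 0.968, the cilium genes Tekt1 at 0.947 and Rsph1 at 0.945, and the cation channel Trpv4 at 0.943. Tekt1 and Rsph1 came from the list of ependyma, the ciliated lining of the ventricles. Enpp2 signal ran from 12.9 to 54.7 in MRL/lpr, from 18.4 to 111 in Fn14ko and from 13.5 to 41.5 in MRL/+.

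**Figure D5:**
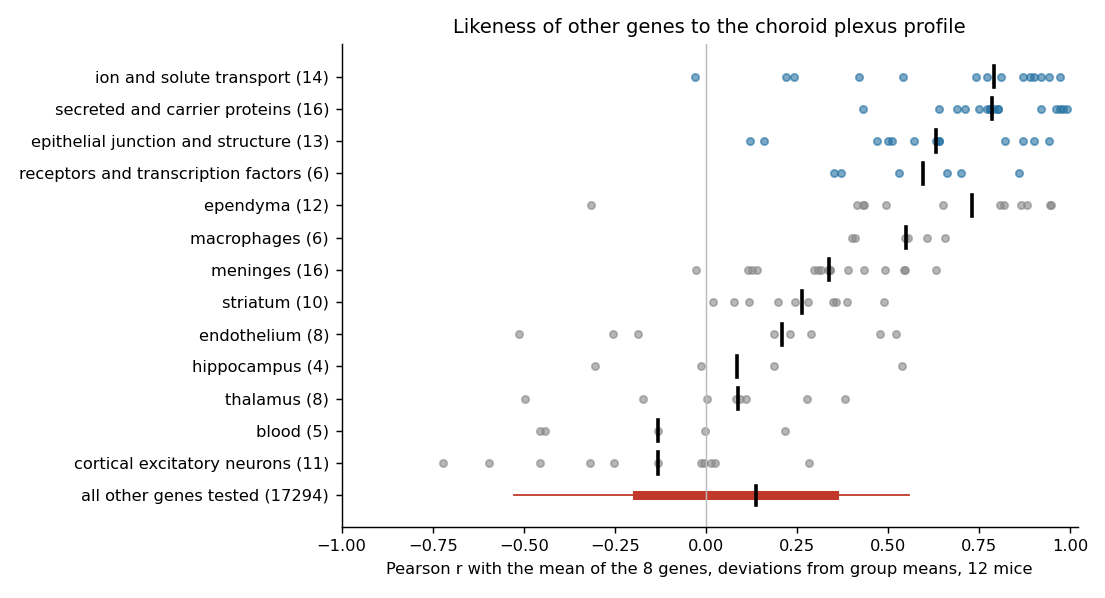
Pearson r of each listed gene with the mean of the 8 choroid plexus genes over 12 mice, after group means were subtracted, with black lines at list medians and, in red, the middle part of all 17294 other genes tested (thick bar for the middle 50%, thin line for the middle 90%). Medians were 0.79 for transport genes and 0.73 for ependyma, against 0.14 for all other genes.

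Few of the 49 further genes passed the test. Between MRL/lpr and Fn14ko, 46 of 49 log2 differences were below 0, with a median of -0.63 (all genes -0.07). The 1 gene that passed in limma, 2.04% of the list against 4.57% of all genes, was Stra6. Between MRL/lpr and MRL/+, 38 of 49 were below 0, with a median of -0.54 (all genes -0.10), and 5 passed, 10.2% of the list against 14.4% of all genes. Between Fn14ko and MRL/+ 18 of 49 were below 0, with a median of 0.22, and none passed in limma, with 9 at an unadjusted p under 0.05. These shares were below those of the whole array, but the order depended on the processing. The share of the list exceeded that of all genes in 6 of 24 alternatives for MRL/lpr against Fn14ko, in 10 of 24 for MRL/lpr against MRL/+ and in 2 of 24 for Fn14ko against MRL/+. Without MRL/lpr mouse 3, 11 of the 49 passed against Fn14ko, 22.4% where 4.29% of all genes did, and 11 passed against MRL/+, 22.4% where 10.7% did. Without Fn14ko mouse 3, 6 passed between MRL/lpr and Fn14ko, 12.2% against 5.02%. For many genes of the list, mouse 3 was the highest in MRL/lpr and the lowest in Fn14ko. Leaving out such a mouse favours a larger count, so these counts describe the remaining mice and are no support for a difference.

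Stra6, the cell surface receptor that takes up retinol from its plasma carrier, behaved differently from the 8 genes. Its signal was 0.323, 0.417, 0.439 and 0.4 in MRL/lpr, 1.15, 1.3, 0.735 and 1.38 in Fn14ko and 1.22, 1.35, 1.11 and 1.78 in MRL/+. No MRL/lpr mouse reached either other group. Stra6 was lower in MRL/lpr than in Fn14ko by a log2 difference of -1.50 (limma adjusted p = 0.00231) and lower than in MRL/+ by -1.78 (limma adjusted p = 0.000641). Its SD within groups was 0.31, near the median of all genes, and mouse 3 was still highest in MRL/lpr and lowest in Fn14ko, with an r of 0.89 with the mean of the 8 after group means were subtracted.

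The other 4 that passed between MRL/lpr and MRL/+ were all lower in MRL/lpr. Slc29a4, a transporter of monoamines, differed by -1.53 (limma adjusted p = 0.0337), with 1.19, 1.21, 4.29 and 1.91 in MRL/lpr and 4.38 to 7.91 in MRL/+. Spint2, an inhibitor of serine proteases, differed by -1.20 (limma adjusted p = 0.0225). Cdhr4, a cadherin-related protein, differed by -1.12 (limma adjusted p = 0.02), and Msx1, a homeodomain factor, by -0.98 (limma adjusted p = 0.0362). Of the 49 further genes tested, 10 had no overlap between MRL/lpr and MRL/+ mice in either direction, where 23.9% of all genes had none. The 5 genes that passed were among these 10, Slc29a4 only by 4.29 against 4.38. They were picked by their adjusted p, so their lack of overlap adds no support. All 5 passed also without MRL/lpr mouse 3, which was the highest of its group for all but Cdhr4. Without MRL/lpr mouse 1, 2 or 4 or Fn14ko mouse 2, Slc29a4 and Msx1 no longer passed, and without MRL/+ mouse 4 Stra6 alone passed. Cdhr4 did not pass with the scanner software's processed signal or without the filter on dim spots. Its log2 difference ran from -1.36 to -0.13 over the alternatives. Cdhr4 signal was 0.66 and 0.677 in the Cy5 mice 2 and 4 of MRL/+. Spots not well above background had medians of 0.555 and 0.472 in those channels, so background limits this difference.

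Marker lists of other cells were measured in the same mice. Ependyma moved with the choroid plexus genes: the mean of its 12 tested genes had an r of 0.87 with the mean of the 8 after group means were subtracted. Of those 12, 7 were lower in MRL/lpr than in Fn14ko and 8 lower than in MRL/+ by the limma test. These are 58.3% and 66.7% of the list, where 4.57% and 14.4% of all genes passed in either direction. Their summed signal was 6.49 to 11 in MRL/lpr, 9.5 to 17 in Fn14ko and 12.8 to 16.4 in MRL/+. In MRL/lpr mouse 3, where choroid plexus genes were high, it was 7.82. Macrophage markers followed with an r of 0.68 over 6 tested genes, summed at 2.71 to 12, 3.59 to 14.7 and 2.18 to 4.48, and none passed in limma, with 1, 0 and 1 at an unadjusted p under 0.05 in MRL/lpr against Fn14ko, MRL/lpr against MRL/+ and Fn14ko against MRL/+. For meninges, 16 genes, r was 0.43, with sums of 19.3 to 26.1, 14.6 to 56.4 and 17.2 to 20.7, and none passed in limma, with 2, 2 and 1 at an unadjusted p under 0.05.

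Markers of neighbouring brain regions moved less closely with the 8 genes. The r of the list mean was 0.35 for endothelium (8 genes), 0.28 for striatum (10 genes), 0.19 for hippocampus (4 genes), 0.10 for thalamus (8 genes), -0.25 for blood (5 genes) and -0.54 for cortical excitatory neurons (11 genes). The summed striatum signal was 21.5 to 44.2 in MRL/lpr, 16.6 to 174 in Fn14ko and 12.4 to 22.5 in MRL/+, with Fn14ko mouse 1 at 174 and MRL/lpr mouse 3 at 44.2. No striatum marker passed in limma, with 0, 3 and 3 at an unadjusted p under 0.05. Of all genes tested, 4.57% passed between MRL/lpr and Fn14ko, 14.4% between MRL/lpr and MRL/+ and 0.954% between Fn14ko and MRL/+. Of 4 hippocampus markers, 3 (75%) were lower in MRL/lpr than in Fn14ko and than in MRL/+, with sums of 15.7 to 21.6, 18.2 to 25.4 and 19.6 to 30.8. Of 8 thalamus markers, 1 (12.5%) was lower in MRL/lpr in the same comparisons, with sums of 7.27 to 8.44, 7.42 to 9.54 and 9.33 to 10.5. Against MRL/+ that is near the share of all genes. Summed blood signal was 96.1 to 235 in MRL/lpr, 38.3 to 100 in Fn14ko and 28.5 to 50.7 in MRL/+, and 1 of 5 markers (20%) passed, higher in MRL/lpr than in MRL/+. Endothelial sums were 33.3 to 34.6, 28.2 to 36.6 and 19.6 to 22.8, with 3 of 8 (37.5%) higher in MRL/lpr than in MRL/+ and 1 of 8 (12.5%) higher in Fn14ko than in MRL/+. Cortical excitatory neuron markers passed in both directions, 3 higher and 1 lower in MRL/lpr than in Fn14ko (36.4% of the list) and 5 higher and 2 lower than in MRL/+ (63.6%). The background correction with its offset keeps every signal above 0, so these sums do not show that a cell type was present. The part of these cells in the choroid plexus differences was not tested.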

How the data were processed

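Cortical RNA of 12 mice was hybridized to 6 two-colour Agilent arrays, 2 mice of 1 group on each. Scanner files with spot intensity in each channel were deposited, made by the authors with Agilent Feature Extraction (12.1.0.3 per the file headers, probes placed on mm9). Other values were the deposited marks for spots well above background, uneven or saturated. Each channel was treated as 1 mouse. Mean intensity was background-corrected (normexp, offset 50), 1952 marked and 17781 dim spots (under 2 times local background in any mouse) were left out of 43020, channels were divided by their median, spots of a gene were averaged, and log2 was taken. Differences were fitted in limma 3.58.1 (R 4.3.3) over all groups with terms for group and dye and with array partners as a random block (correlation 0.316), with Benjamini-Hochberg adjustment over 17302 genes at 0.05. The authors' filter of dim spots was followed. On simulated data the fit was tested before use. With 4 mice a group, their number limits precision. The genes and lists were chosen with earlier results of these data known. Genes were named as all 10 members, the further choroid plexus genes that passed, and the 10 most like the 8 in each of 2 rankings. Alternatives covered background, scaling, filters, dye, blocks, probes and mice left out; leaving out both Cy5 mice of MRL/+ and removing dye means from the spread were chosen after seeing the data. The annotation of probes on mm9 exons was not used here.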

Additional observations from a re-analysis of the deposited data

Results flagged for a closer look

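In groups of 4 mice, a value was marked where its gap to the nearest other mouse, over the range of the group, exceeded the limit of Dixon's test. For normally distributed values chance alone does so in about 1 group in 20. The gaps were taken on signals and not on log2, so that rate need not hold here. In all, 45 groups were looked at and 8 values were marked. The groups share the same mice and the genes varied together, so the 8 are not set against that rate. MRL/lpr mouse 3 stood apart for Ttr at 91.2, for Clic6 at 1.88, for Kl at 2.88 and for Otx2 at 0.662. Fn14ko mouse 3 stood apart for Slc4a5 at 0.131, the mean over both probes, below the other 3 mice. MRL/+ mouse 4, labelled with Cy5 and with a high background, stood apart for Folr1 at 3.84 and for Slc29a4 at 7.91. MRL/+ mouse 3 stood apart for Cdhr4 at 0.363, below the rest of its group.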

How the results depend on the processing

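The median log2 difference of the members tested kept its sign in all 24 alternatives and moved by less than 1.11, the SD between mice. It was taken over 8 genes, but over 10 without the filter on dim spots and over 5 with spots well above background in all mice. The values -0.97 and 1.00 below came from the 10 genes without the filter. The median ran from -2.80 to -1.37 for MRL/lpr against Fn14ko, from -2.20 to -0.97 against MRL/+, and from 0.05 to 1.00 between Fn14ko and MRL/+. With 1 mouse left out the ranges were -2.80 to -1.37, -2.20 to -1.03 and 0.05 to 0.95. Counts of genes called depended on the processing. For MRL/lpr against Fn14ko 790 genes passed. The count was 2849 with plain background subtraction, 1889 with the scanner software's processed signal, 2219 after loess and A-quantile scaling, 32 without the filter on dim spots, 1782 without the array block, and 357 to 1002 with 1 mouse left out. For MRL/lpr against MRL/+ the 2492 became 5140 by subtraction, 4683 after loess, 22 without the filter, 5189 without the array block, 871 without both Cy5 mice of MRL/+ and 781 to 5551 with 1 mouse left out. For Fn14ko against MRL/+ the 165 became 2837 by subtraction, 1012 with the processed signal, 1422 after loess, 604 with 75th percentile scaling, 0 without the filter in limma (1683 at an unadjusted p under 0.05), 805 with spots well above background in all mice, 294 without the dye term, 1881 without the array block, 365 with those groups alone, 286 by single probes, 6 without both Cy5 mice of MRL/+ and 8 to 2164 with 1 mouse left out.

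Of the further choroid plexus genes, 1, 5 and 0 passed in the 3 comparisons. The counts were 12, 12 and 3 by subtraction, 8, 10 and 3 with the processed signal, 4 and 10 in the first 2 after loess, 2 and 9 with 75th percentile scaling, 0 and 0 in the first 2 without the filter in limma (17 and 10 at an unadjusted p under 0.05), 3, 9 and 1 with spots well above background in all mice, 2, 9 and 1 without the dye term, 8, 14 and 3 without the array block, 1 between Fn14ko and MRL/+ with those groups alone, and 1 between MRL/lpr and MRL/+ without both Cy5 mice. With 1 mouse left out they ran from 1 to 11 (the 11 without MRL/lpr mouse 3), 1 to 15 and 0 to 1. The cause of these changes was not tested. Mice of the same number shared a dye. With group means removed, r between same-numbered mice ran from -0.13 to 0.72 and exceeded 0.1 in 8 of 12 pairs. With dye removed as well, it ran from -0.28 to 0.48 and exceeded 0.1 in 3 of 12 pairs. The labels state no pairing. Because number goes with dye, these values cannot decide whether the numbers pair the mice. With the replicate block in place of the dye term, 1624, 5597 and 1209 genes passed, and 6, 16 and 2 further choroid plexus genes.

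Clic6 between MRL/lpr and MRL/+ passed in 14 of 24 alternatives, and Stra6 in 23 of 24 in both comparisons, failing without the filter on dim spots. Signs turned between Fn14ko and MRL/+ alone, where none had passed. With the processed signal the log2 differences were -0.03 for Ttr, 0.18 for Prlr, -0.04 for Slc29a4, 0.01 for Stra6, 0.60 for Cdhr4 and 0.04 for Msx1. Slc29a4 was at -0.18 after loess, -0.16 with 75th percentile scaling, where Ttr was at -0.01 and Aqp1 at -0.24, and -0.13 with spots well above background in all mice. Without the filter Prlr was at 0.42, Stra6 at 0.45, Spint2 at 0.11, Cdhr4 at 0.05 and Msx1 at 0.60. Otx2 was at -0.11 by single probes, and without both Cy5 mice of MRL/+ Prlr was at 0.26 and Msx1 at 0.18. With 1 mouse left out Ttr ran from -0.29 to 0.97, Aqp1 from -0.39 to 0.45, Sostdc1 from -0.06 to 0.93, Prlr from -0.64 to 0.06, Slc29a4 from -0.08 to 0.32 and Msx1 from -0.34 to 0.14. Signal near background limits Slc4a5, Cldn2, the second Otx2 probe and the dim values of the Cy5 mice of MRL/+, among them those of Cdhr4. It also limits the dim values of the Cy3 mice 1 of MRL/+ and Fn14ko.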
